A study of Mus musculus with 12 samples.

Results

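The hedgehog genes considered here are the ligand *Ihh*, the receptors *Ptch1* and *Smo*, the ligand-binding decoy *Hhip* and the transcription factors *Gli1*, *Gli2* and *Gli3*, 7 genes of the 55401 in the tables of whole-kidney RNA. They were taken by name and were selected on measured values of the same contrast. Their differences between treatments are therefore only described here. Fitted values, intervals and FDR calls given for these genes belong to that description and are no independent test. Male C57BL6 mice, aged 8 weeks, received a single intraperitoneal injection of vehicle (2-hydroxypropyl-beta-cyclodextrin, n = 6) or of SK-124 at 40 mg/kg (n = 6). SK-124 is a small-molecule inhibitor of the salt-inducible kinases SIK2 and SIK3, and the study asked which renal transcripts respond when these kinases are inhibited acutely. Whole kidney was sequenced as 1 library per mouse, the labels name no engineered allele, and the time from injection to this RNA sampling is not given in the sources used here.

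Hedgehog ligands are secreted proteins that bind PTCH1 on receiving cells, which releases the membrane protein SMO from inhibition and lets GLI factors activate transcription in a process that runs through the primary cilium. PTCH1, HHIP and GLI1 are also transcriptional targets, so that active signaling raises its own inhibitors, and protein kinase A, which also acts on SIKs, phosphorylates GLI proteins and favors their repressor forms. In the growth plate, Indian hedgehog and parathyroid hormone-related protein form a feedback loop, and in the adult kidney tubular epithelium is known as a source of *Ihh* while interstitial stromal cells are known as responders.

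The RefSeq table of promoter windows (GRCm38.p6) held 6 of the 7 genes. *Gli1* had no entry. Windows reaching from 250 bases before to 50 bases after the annotated start were searched on both strands for the GLI-binding 9-mer GACCACCCA, found in 0.253% of the 32851 windows of the table, and for the cAMP response element TGACGTCA, found in 1.79%. No window of the 6 genes held the GLI 9-mer, and only the *Hhip* window held the cAMP response element. These windows follow RefSeq starts. The *Ptch1* window, chr13:63565686-63565985, lies inside the GENCODE gene, whose minus-strand start is at 63573598. The *Gli3* window, chr13:15463473-15463772, begins after the GENCODE start at 15463235. For these genes the GENCODE start was not searched. The 250 bases before the start are given for *Ihh*, the gene with the largest difference between treatments, and for *Hhip*, the gene with the match. Both lie on the minus strand, *Ihh* at chr1:74951673-74951922 and *Hhip* at chr8:80058009-80058258, and capitals mark the cAMP response element, which begins 75 bases before the *Hhip* start.
Ihh: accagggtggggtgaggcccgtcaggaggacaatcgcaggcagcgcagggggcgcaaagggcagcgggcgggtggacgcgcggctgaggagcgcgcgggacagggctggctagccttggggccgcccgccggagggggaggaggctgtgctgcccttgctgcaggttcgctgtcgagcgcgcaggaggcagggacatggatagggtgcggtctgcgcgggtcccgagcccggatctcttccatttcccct
Hhip: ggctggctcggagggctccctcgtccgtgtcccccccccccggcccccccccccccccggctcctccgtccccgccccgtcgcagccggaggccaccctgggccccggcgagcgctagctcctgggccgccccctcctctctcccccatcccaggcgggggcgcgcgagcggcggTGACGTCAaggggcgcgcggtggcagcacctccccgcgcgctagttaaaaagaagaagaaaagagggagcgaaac
The letters record a match only, and whether any factor binds there was not measured in this experiment. With 72.0% and 76.0% G and C, both stretches are GC-rich.

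Expected counts summed to between 19244227 and 19771802 per mouse. The 10 genes with the most counts took 39.9% to 43.2% of them in vehicle-treated mice, 44.4% to 46.8% in SK-124-treated mice 1 to 3 and 38.6% to 40.2% in SK-124-treated mice 4 to 6, and no label names a batch for these 3 mice. Of 14159 genes that passed the expression filter, 24.4% had an FDR (Benjamini-Hochberg adjusted p from the quasi-likelihood test of edgeR) under 0.05 with SK-124. Lower genes made up 13.5% and higher genes 10.8% of those tested. The median log2 fold change over the tested genes was -0.005. The proximal tubule transporter *Slc34a1*, a defining kidney marker, was at 4749 ± 208 CPM (counts scaled to library size after TMM normalization) with vehicle and 4527 ± 408 CPM with SK-124 (SD, n = 6 each).

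*Ihh* was lower in SK-124-treated kidneys, whereas *Ptch1*, *Smo* and the GLI genes had overlapping levels in the 2 groups. *Gli1*, *Gli3* and *Hhip* did not pass the filter, so 4 of the 7 genes were fitted, and 1 of these 4, *Ihh*, had an FDR under 0.05. Because the genes were selected on this contrast, nothing is read from that count beside the 24.4% of all tested genes.

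*Ihh* (ENSMUSG00000006538.12) encodes the Indian hedgehog ligand and lies on chromosome 1 from 74945315 to 74951672, minus strand, in GENCODE M21 (GRCm38), and no other annotated gene overlaps it. In vehicle-treated mice its lowest, median and highest values were 11.8, 15.6 and 18.3 CPM. In SK-124-treated mice they were 5.83, 7.76 and 11.4 CPM. All 6 SK-124-treated mice were below all 6 vehicle-treated mice, but narrowly, since SK-124-treated mouse 5 at 11.4 CPM nearly met vehicle-treated mouse 1 at 11.8 CPM. Such a separation held for 6.65% of all tested genes. The mean was 15.7 ± 2.33 CPM with vehicle and 8.23 ± 2.23 CPM with SK-124 (SD, n = 6 each). On the log2 scale the fitted difference, SK-124 minus vehicle, was -0.93 (standard error 0.15, 95% interval -1.24 to -0.62). On the authors' TPM scale, which divides by gene length, the groups met, because SK-124-treated mouse 5 was at 5.90 TPM and the lowest vehicle-treated mouse was at 5.34 TPM. In rounded expected counts the 6 vehicle-treated libraries held 238 to 371 *Ihh* reads each and the 6 SK-124-treated libraries 112 to 228.

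The lower *Ihh* level was present in both subsets of SK-124-treated mice. Against all mice given vehicle, the log2 fold change was -0.89 without mice 1 to 3 and -0.95 without mice 4 to 6. Among all tested genes, 1.69% had a log2 fold change at or below that of *Ihh*, and 236 of these had an FDR under 0.05. In whole-kidney RNA, fewer cells of a type and less RNA per cell cannot be told apart. This applies to every level given here.

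*Ihh* was the hedgehog ligand with the most RNA in these kidneys. Per length, the mean was 7.06 ± 1.11 TPM for *Ihh* with vehicle (SD, n = 6). The other ligand genes, *Shh* for sonic and *Dhh* for desert hedgehog, averaged 0.170 and 0.142 TPM in the same mice. Neither passed the filter. *Shh* had 4 to 15 expected counts per vehicle-treated mouse and 3 to 9 per SK-124-treated mouse, 59 against 32 over the 6 libraries. *Dhh* had 7 to 12 with vehicle and 2 to 8 with SK-124, 51.9 against 25.2 in all, and 5 of 6 SK-124-treated mice had fewer *Dhh* counts than every vehicle-treated mouse. Both ligands thus had lower sums with SK-124, on few counts, with overlapping ranges and outside the main fit.

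*Ptch1* (ENSMUSG00000021466.12, chromosome 13, 63508328 to 63573598, minus strand) encodes the hedgehog receptor and is itself induced by GLI. Its lowest, median and highest values were 16.8, 24.4 and 25.4 CPM with vehicle. With SK-124 they were 18.1, 24.1 and 26.0 CPM. The groups overlapped over nearly their whole range, with vehicle-treated mouse 3 below every other mouse, and the log2 fold change was -0.01 (standard error 0.10, 95% interval -0.23 to 0.20). Without vehicle-treated mouse 3 it was -0.09 (standard error 0.08). It was -0.13 with library totals alone and -0.17 and -0.21 in limma on TPM, where the median of all tested genes also shifted, to -0.12, -0.11 and -0.14. *Ptch1* was called in none of the 22 alternatives.

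*Smo* (ENSMUSG00000001761.7, chromosome 6, 29735503 to 29761365, plus strand) encodes the transducer that PTCH1 restrains, and it was the most abundant of the 7 transcripts. Its lowest, median and highest values were 49.4, 51.6 and 54.6 CPM with vehicle and 44.4, 47.6 and 54.9 CPM with SK-124. SK-124-treated mouse 1, at 51.8 CPM, lay inside the vehicle range and mouse 2, at 54.9 CPM, just above it, and the other 4 lay below every mouse given vehicle. The log2 fold change was -0.09 (standard error 0.06, 95% interval -0.21 to 0.03). Scaled by library totals alone it was -0.21 with an FDR under 0.05, the one scaling under which a gene of the set other than *Ihh* was called, and in that scaling the median of all tested genes shifted to -0.12.

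*Hhip* (ENSMUSG00000064325.4, chromosome 8, 79965851 to 80058006, minus strand) encodes a membrane protein that binds and sequesters hedgehog ligands and is another GLI target. It had 1, 2 and 9 expected counts as lowest, median and highest with vehicle and 0, 2.5 and 6 with SK-124. Over the 6 libraries these summed to 19 and 17 counts. The groups overlapped, vehicle-treated mouse 5 held the 9 counts and SK-124-treated mouse 6 none, and a difference in *Hhip* was not detectable at this depth.

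*Gli1* (ENSMUSG00000025407.7, chromosome 10, 127329882 to 127341974, minus strand) encodes the GLI activator whose transcript is often used as a readout of hedgehog signaling. It had 2, 8 and 12 expected counts as lowest, median and highest with vehicle and 3, 4 and 13 with SK-124. SK-124-treated mice 4 and 6 were at 13 and 12 counts and the other 4 at 3 or 4 counts, while 5 of 6 vehicle-treated mice held 7 or more, and the ranges overlapped. Fitted without the filter on low counts, the log2 fold change was -0.16 with a standard error of 0.41, so neither a fall nor a rise was detectable at this depth. *Arhgap9*, a GTPase-activating protein gene on the opposite strand, overlaps *Gli1* and had 12 to 25 counts with vehicle and 5 to 13 with SK-124. The sources used here do not say whether counting used strand, so reads of these 2 genes may not have been told apart. *Gli1* also lies 276.9 kb from *Cyp27b1*, the vitamin D 1-alpha-hydroxylase gene at the center of the study.

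*Gli2* (ENSMUSG00000048402.14, chromosome 1, 118834132 to 119053619, minus strand) encodes the main GLI activator of development. Its lowest, median and highest values were 0.358, 1.11 and 1.99 CPM with vehicle and 0.501, 1.08 and 2.69 CPM with SK-124. SK-124-treated mouse 3 was above every other mouse, the groups overlapped, and the log2 fold change was 0.18 (standard error 0.39, 95% interval -0.64 to 0.99). The sign was negative on the TPM scale. *Gli3* (ENSMUSG00000021318.15, chromosome 13, 15463235 to 15730026, plus strand) encodes the factor that acts mostly as a repressor when ligand is absent. It had 6, 8.5 and 11 expected counts as lowest, median and highest with vehicle and 4, 8 and 14 with SK-124, with the vehicle range inside that of SK-124, and without the filter its log2 fold change was 0.03 (standard error 0.32).

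**Figure D1:**
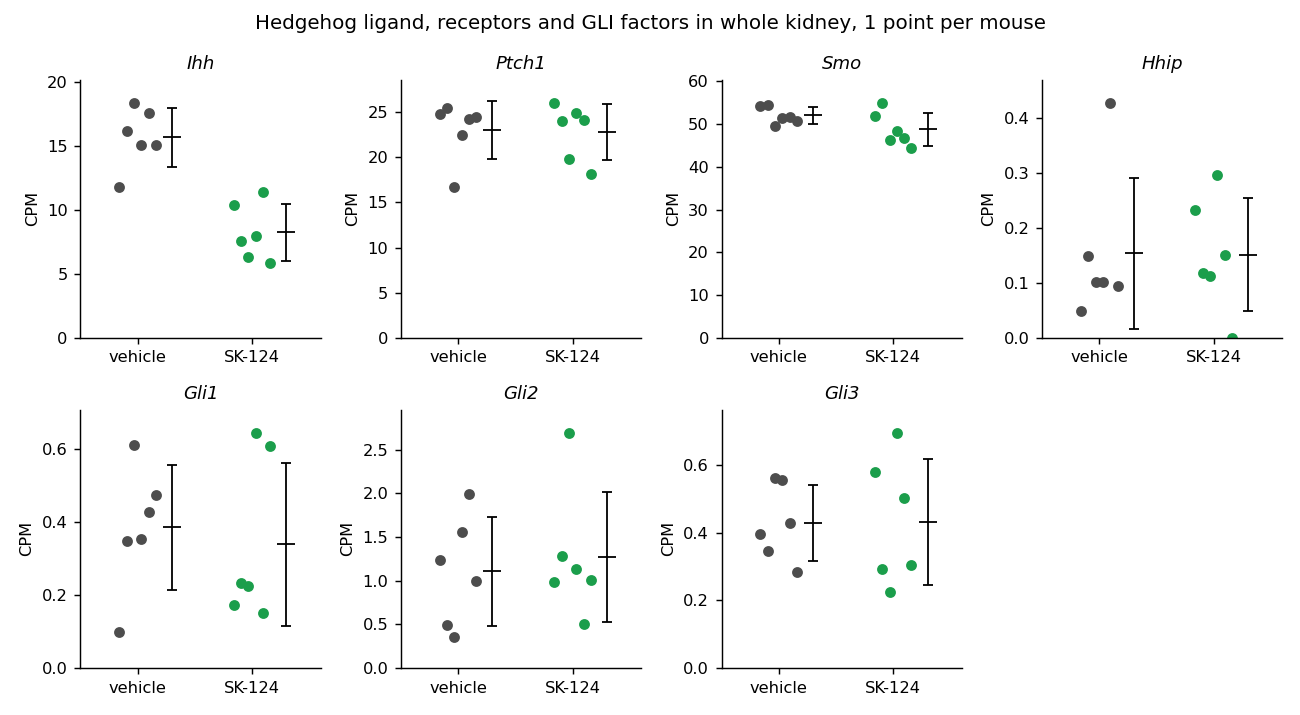
TMM-normalized CPM (y axis, from 0) of the 7 hedgehog genes in vehicle-treated (grey) and SK-124-treated (green) mice, 1 point per mouse, with the mean and SD of each group as bars. *Ihh* is the gene whose 6 SK-124-treated mice all lie below the 6 vehicle-treated mice, at 5.83 to 11.4 against 11.8 to 18.3 CPM; *Gli1*, *Gli3* and *Hhip* stay under 1 CPM in every mouse.

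Compared per length, the 7 transcripts covered a wide range. In vehicle-treated mice the mean was 13.5 ± 1.05 TPM for *Smo*, followed by *Ihh* and then by *Ptch1* at 3.32 ± 0.87 TPM (SD, n = 6). The ranges of these 3 genes and of *Gli2*, at 0.360 ± 0.10 TPM, did not overlap between neighbors, so receptor and ligand RNA stood clearly above that of the GLI factors. *Gli3* at 0.127 TPM, *Gli1* at 0.113 TPM and *Hhip* at 0.0367 TPM overlapped with their neighbors, *Gli2* with *Gli3* included. The place of *Gli3* above *Gli1* by mean rested on few mice, since vehicle-treated mouse 4 was at 0.48 TPM for *Gli3* and the median was 0.05 TPM, below the 0.115 TPM of *Gli1*. With SK-124 the medians were 0.05 and 0.07 TPM, with SK-124-treated mouse 5 at 0.35 TPM for *Gli3*, and *Gli3* exceeded *Gli1* in 2 of 6 mice of each group. In SK-124-treated mice *Ihh*, at 3.69 ± 1.21 TPM, came close to *Ptch1*, at 2.79 ± 0.36 TPM (SD, n = 6). Their ranges overlapped there, although *Ihh* remained above *Ptch1* in 6 of 6 mice. *Smo* stayed highest at 11.3 ± 0.78 TPM, and the low genes again overlapped with their neighbors.

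**Figure D2:**
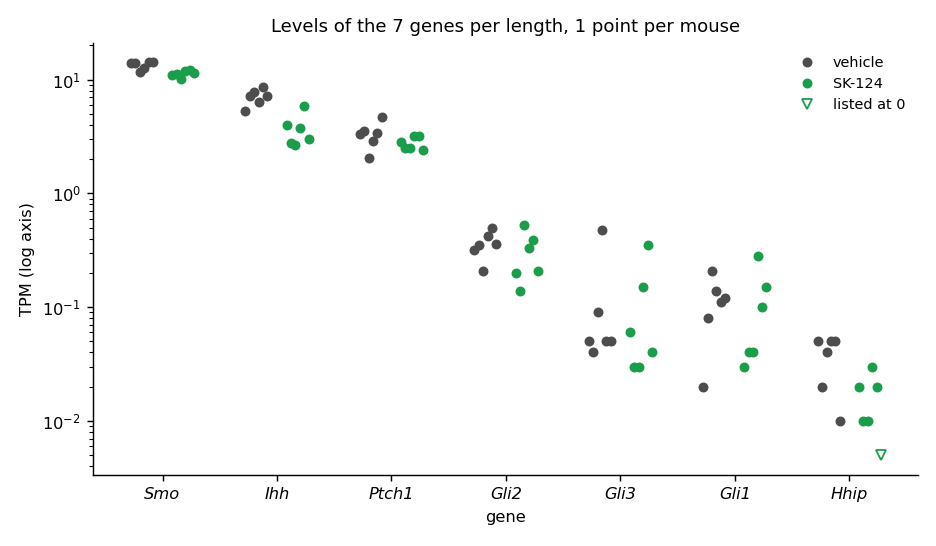
TPM of the 7 genes (log y axis) in vehicle-treated (grey) and SK-124-treated (green) mice, 1 point per mouse, ordered by the vehicle mean; the open triangle marks the 1 SK-124-treated mouse in which *Hhip* is listed at 0 and is drawn at an arbitrary height. The gap between *Ihh* and *Ptch1* is smaller with SK-124, at 3.69 against 2.79 TPM, than with vehicle, at 7.06 against 3.32 TPM.

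Between mice that received the same injection, ligand and target levels could be compared without the treatment contrast. Pearson's r and Spearman's rho of log2(CPM + 0.5) were computed for the 6 pairs among *Ihh*, *Gli1*, *Ptch1* and *Hhip* in each group, 12 relations in all, with two-sided exact permutation tests. None of the 12 had an adjusted p under 0.05, and the lowest adjusted p was 0.167 for r and 0.200 for rho. Unadjusted, 2 relations had a Pearson p under 0.05 and 1 a Spearman p under 0.05. In vehicle-treated mice, *Ihh* and *Gli1* had r = 0.905 (exact permutation p = 0.0278, adjusted p = 0.167) and rho = 0.6 (p = 0.242, adjusted p = 0.414). Without the 2 mice farthest from the median *Ihh* level, r was 0.0455, so the relation rested on those mice. In SK-124-treated mice the same pair had the opposite sign, with r = -0.58 (exact permutation p = 0.168, adjusted p = 0.398) and rho = -0.6 (p = 0.242, adjusted p = 0.414), and r was -0.01 without the 2 farthest mice. In SK-124-treated mice, *Ptch1* and *Hhip* had r = 0.856 (exact permutation p = 0.0153, adjusted p = 0.167) and rho = 0.943 (p = 0.0167, adjusted p = 0.200), and r was 0.681 without the 2 farthest mice. *Ptch1* held 328 to 517 counts per mouse. With *Ihh* it had r = 0.817 (exact permutation p = 0.0694, adjusted p = 0.278) and rho = 0.829 (adjusted p = 0.233) in SK-124-treated mice. Without the 2 farthest mice r was 0.999. In vehicle-treated mice that pair had r = -0.524 (exact permutation p = 0.265, adjusted p = 0.398), and 0.376 without the 2 farthest. *Gli1* and *Hhip* rest on at most 13 counts per mouse. As no relation passed the adjusted threshold, none is read as a finding.

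The genes whose log2(CPM + 0.5) was most like that of *Ihh* over the 12 mice were *Spsb4* (r = 0.955), *Clec2h* (0.950), *Olfm1* (0.945), *Rcc1* (0.945) and *Tmem110* (0.941). After subtraction of each group's mean, r was 0.852, 0.801, 0.790, 0.772 and 0.875 for these 5 genes in the same order. They were picked as the highest of all tested genes, so these values are descriptions, and part of the likeness over 12 mice is the difference between treatments, with fitted log2 fold changes of -1.12 for *Spsb4*, -0.90 for *Clec2h*, -0.55 for *Olfm1*, -0.39 for *Rcc1* and -0.21 for *Tmem110*. For *Gli1*, with 2 to 13 counts per mouse, the most alike were *Orai2* (r = 0.865), *Ralgds* (0.852), *Def6* (0.845), *Gtf2ird2* (0.842) and *Kif5c* (0.839), none of which had an FDR under 0.05 between treatments.

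Beyond these genes, 38 other hedgehog genes in 4 lists were examined, and 29 of them passed the filter. With SK-124, 11 of the 29 fell and 3 rose, while the other 15 did not pass the test (FDR under 0.05, edgeR, Benjamini-Hochberg adjustment over all genes). That is 48.3% of the tested members of the lists beside 24.4% of all tested genes, with a median log2 fold change of -0.12 beside -0.005. The lists were chosen with earlier results of these data known, so nothing is read from the difference between these shares. The direction of the calls depended on the scaling: 15 genes were lower and 0 higher with library totals alone, and 10 were lower and 0 higher in limma on TPM. Co-receptors and reported GLI targets held most of the genes that fell, and the 3 genes that rose were all in the chain between SMO and GLI. With 1 mouse left out the number of called genes was between 8 and 14. It was 8 without SK-124-treated mouse 3 or 5, and 9 without SK-124-treated mouse 2 or vehicle-treated mouse 2, 4 or 5. It was 7 without SK-124-treated mice 1 to 3 and 9 without mice 4 to 6. Calls over all genes fell in those 2 settings too, to 2446 of 14621 tested and 2298 of 14512, beside 3453 of 14159 with all mice. With 1 mouse left out they were 2960 to 3942.

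**Figure D3:**
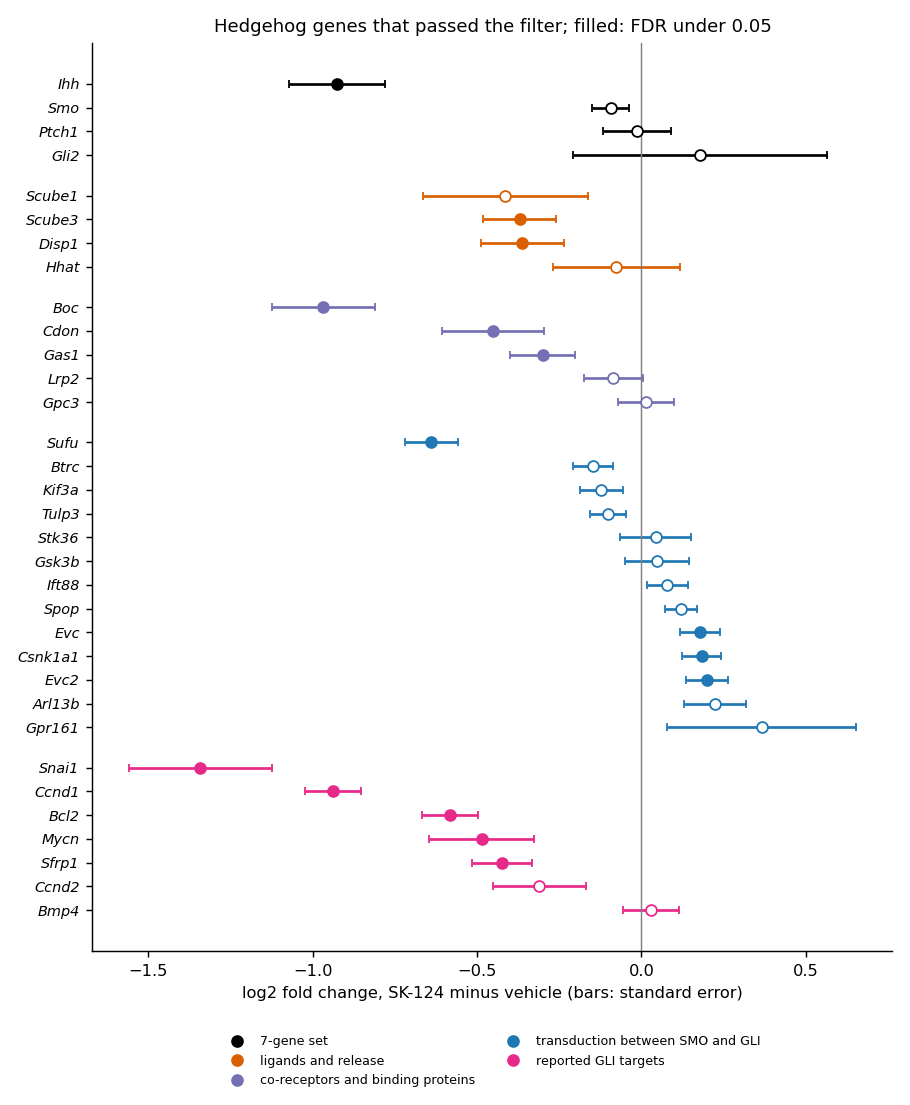
Log2 fold change (SK-124 minus vehicle, x axis) with its standard error for each of the 33 hedgehog genes that passed the filter, grouped by role; filled circles have an FDR under 0.05. Among co-receptors and reported GLI targets the filled circles are all to the left of 0, from -0.30 for *Gas1* to -1.34 for *Snai1*, and the only filled circles to the right are *Evc2*, *Csnk1a1* and *Evc*, at 0.18 to 0.20.

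Of 8 genes for other ligands and for ligand processing and release, 4 were tested and 2 fell, with a median log2 fold change of -0.37. The 2 called genes are 50% of those tested, beside 24.4% of all genes. As the list was chosen with earlier results known, nothing is read from that share. *Scube3*, a secreted protein of a family that helps lipid-modified hedgehog leave the cell, was at 6.08, 7.87 and 8.59 CPM with vehicle (lowest, median, highest) and at 4.73, 5.96 and 7.45 CPM with SK-124. Its log2 fold change was -0.37 (standard error 0.11, edgeR FDR = 0.0209), and 4 of 6 SK-124-treated mice were below the vehicle range. Without SK-124-treated mice 1 to 3 it was -0.32 with an FDR of 0.132. *Disp1*, which encodes the transporter that releases ligand from the producing cell, fell by 0.36 on the log2 scale (standard error 0.13, edgeR FDR = 0.0472). That call was lost without any 1 of 9 mice (vehicle-treated mice 1, 2, 4, 5 and 6 and SK-124-treated mice 3 to 6), with log2 fold changes of -0.44 to -0.30 and FDRs up to 0.110 over the 12 omissions. Without SK-124-treated mice 1 to 3 the log2 fold change of *Disp1* was -0.53 (edgeR FDR = 0.0323). Without mice 4 to 6 it was -0.20 (edgeR FDR = 0.426). The acyltransferase *Hhat*, which lipid-modifies the ligands, was at 1.35 CPM with vehicle and 1.28 CPM with SK-124, with the groups overlapping.

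All 5 co-receptors and other binding proteins considered were tested and 3 fell, with a median log2 fold change of -0.30. The 3 called genes are 60% of the list, beside 24.4% of all genes, and nothing is read from that share either. *Boc*, a co-receptor that presents ligand to PTCH1, was at 4.31, 6.09 and 7.16 CPM with vehicle and at 2.41, 2.82 and 4.41 CPM with SK-124 (lowest, median, highest). Its log2 fold change was -0.97 (standard error 0.16, edgeR FDR = 0.000197). SK-124-treated mouse 4 reached the lowest vehicle-treated mouse and the other 5 lay below the vehicle range. The fall was -0.74 (FDR = 0.0119) without SK-124-treated mice 1 to 3 and -1.24 (FDR = 0.00027) without mice 4 to 6, and the difference between these values was not tested. The related co-receptor *Cdon* fell by 0.45 (standard error 0.15, edgeR FDR = 0.0413) and the ligand-binding *Gas1* by 0.30 (standard error 0.10, edgeR FDR = 0.0346), both on the log2 scale.

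The *Cdon* call was lost without any 1 of 9 mice (vehicle-treated mice 1, 2, 4, 5 and 6 and SK-124-treated mice 2, 3, 5 and 6; FDRs up to 0.0995, log2 fold changes of -0.55 to -0.37). The *Gas1* call was lost without any 1 of 6 mice (vehicle-treated mice 2, 3 and 5 and SK-124-treated mice 3 to 5). Over all single omissions its FDRs were up to 0.0858 and its log2 fold changes -0.35 to -0.25. Without SK-124-treated mice 1 to 3, the edgeR FDR was 0.124 for *Cdon* and 0.0761 for *Gas1*. Without mice 4 to 6 it was 0.157 and 0.227. The *Cdon* call was also lost in limma on TPM. *Lrp2*, the megalin endocytic receptor of the proximal tubule, which also binds hedgehog ligand, was at 1294 ± 135.5 CPM with vehicle and 1220 ± 165.5 CPM with SK-124 (SD, n = 6) with a log2 fold change of -0.09 (95% interval -0.28 to 0.10). The glypican gene *Gpc3* had a log2 fold change of 0.01 (95% interval -0.16 to 0.19).

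Between SMO and GLI, 13 of 14 genes were tested, of which 1 fell and 3 rose, with a median log2 fold change of 0.08. The 4 called genes are 30.8% of those tested, near the 24.4% of all genes. *Sufu*, which binds GLI proteins and holds them inactive, was at 32.7, 39.7 and 46.0 CPM with vehicle and at 22.0, 25.8 and 27.9 CPM with SK-124. All 6 SK-124-treated mice were below all 6 vehicle-treated mice, with a log2 fold change of -0.64 (standard error 0.08, edgeR FDR = 1.51e-05). It was -0.68 without SK-124-treated mice 1 to 3 and -0.59 without mice 4 to 6.

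The genes that rose were *Evc2* and *Evc*, whose products form a complex at the base of the cilium that relays the SMO signal, and *Csnk1a1*, a casein kinase that phosphorylates GLI. *Csnk1a1* was at 61.3, 75.3 and 77.4 CPM with vehicle and at 79.1, 82.0 and 88.0 CPM with SK-124, with no overlap between the groups, and its log2 fold change was 0.18 (standard error 0.06, edgeR FDR = 0.0296). *Evc2* rose by 0.20 (standard error 0.06, edgeR FDR = 0.0294) and *Evc* by 0.18 (standard error 0.06, edgeR FDR = 0.0396). All 3 calls were lost without the filter on low counts, in limma on TPM and when counts were scaled by library totals alone. With library totals the log2 fold changes were 0.08 for *Evc2*, 0.06 for *Evc* and 0.07 for *Csnk1a1*. Without SK-124-treated mice 1 to 3 they were 0.12, 0.09 and 0.20, none with an FDR under 0.05. Without mice 4 to 6 they were 0.28 (FDR = 0.0148), 0.27 (FDR = 0.0125) and 0.17 (FDR = 0.166), so the *Evc2* and *Evc* calls held with mice 1 to 3, whose top 10 genes took a higher share of counts, and not with mice 4 to 6. The part of that share in these rises was not tested. With 1 mouse left out, the *Evc* call was lost for 9 mice (vehicle-treated mice 1, 2, 4, 5 and 6 and SK-124-treated mice 1, 2, 3 and 6), the *Evc2* call for 6 (vehicle-treated mice 5 and 6 and SK-124-treated mice 1, 2, 3 and 5) and the *Csnk1a1* call for 3 (vehicle-treated mouse 4 and SK-124-treated mice 2 and 5), at FDRs up to 0.0832, 0.0682 and 0.0648. The ciliary genes *Ift88*, *Kif3a*, *Arl13b* and *Tulp3* had log2 fold changes of 0.08, -0.12, 0.22 and -0.10 and did not pass the test.

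Of 11 reported GLI targets, 7 were tested and 5 fell, with a median log2 fold change of -0.49. The 5 called genes are 71.4% of those tested, beside 24.4% of all genes. This list too was chosen with earlier results known, so nothing is read from that share. *Ccnd1*, which encodes cyclin D1 and responds to many growth signals besides hedgehog, was at 89.8, 106.1 and 126.8 CPM with vehicle and at 46.5, 56.5 and 64.0 CPM with SK-124. The groups did not overlap, and the log2 fold change was -0.94 (standard error 0.08, edgeR FDR = 3.28e-07). *Snai1*, the Snail repressor of epithelial genes, was at 2.17, 2.75 and 4.70 CPM with vehicle and at 1.01, 1.16 and 1.85 CPM with SK-124, a log2 fold change of -1.34 (standard error 0.22, edgeR FDR = 0.000197), again without overlap.

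*Bcl2*, the anti-apoptotic factor, fell by 0.58 on the log2 scale (standard error 0.08, edgeR FDR = 6.66e-05) and *Sfrp1*, a secreted WNT antagonist, by 0.42 (standard error 0.09, edgeR FDR = 0.00228), each with all 6 SK-124-treated mice below all vehicle-treated mice. *Mycn*, a MYC-family factor, fell by 0.49 (standard error 0.16, edgeR FDR = 0.0347), a call that was lost without any 1 of 8 mice (vehicle-treated mice 1, 2, 4 and 5 and SK-124-treated mice 2 to 5), at log2 fold changes of -0.55 to -0.36 and FDRs up to 0.0966. The *Mycn* call was also lost without SK-124-treated mice 1 to 3 (edgeR FDR = 0.182) and without mice 4 to 6 (edgeR FDR = 0.114). *Bmp4* and *Ccnd2*, the other targets tested, had log2 fold changes of 0.03 and -0.31 and did not pass the test. All of these targets have other known regulators. Whether the falls among the listed targets go through GLI was not tested.

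*Foxf1*, a hedgehog-responsive forkhead factor of mesenchyme, is named after its values were seen. It did not pass the filter, and its expected counts were 0 to 3 per vehicle-treated mouse and 3 to 12 per SK-124-treated mouse, 9 against 36 over the 6 libraries. In TMM-normalized CPM the groups did not overlap, at 0 to 0.148 with vehicle and 0.175 to 0.594 with SK-124. *Foxf1* thus stood on the other side from the 5 targets that fell, on few counts and outside the main fit. The fit without the filter included it, and 1 gene of the 4 lists, not named here, was called higher there.

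**Figure D4:**
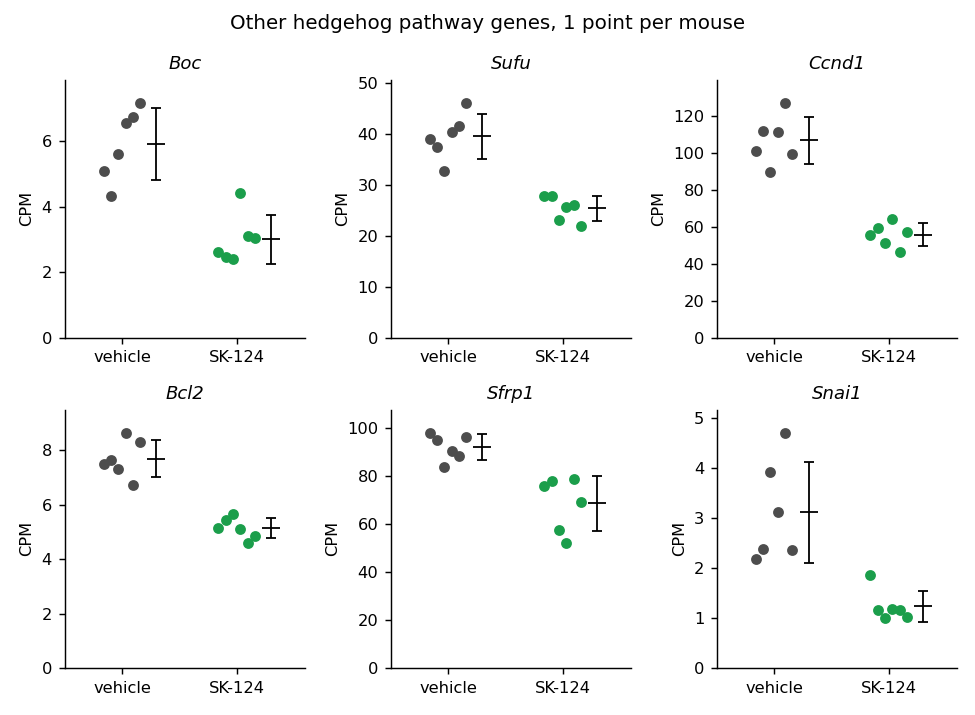
TMM-normalized CPM (y axis, from 0) of the 6 other hedgehog genes called in all 22 alternative settings, 1 point per mouse, with the mean and SD of each group as bars. In each panel the SK-124 points (green) are below the vehicle points (grey), except that SK-124-treated mouse 4, at 4.41 CPM, lies within the vehicle range of *Boc*, which starts at 4.31 CPM.

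Stromal cells are the usual responders to tubular hedgehog ligand, and their markers were examined beside the pathway genes. Of 11 stromal markers, all of them tested, 3 fell and 1 rose, which is 36.4% called beside 24.4% of all genes, and the median log2 fold change was -0.27. *Pdgfrb*, a receptor of pericytes and fibroblasts, had a log2 fold change of -0.93 (standard error 0.13, edgeR FDR = 5.39e-05), from 25.4 ± 4.32 to 13.3 ± 2.71 CPM (SD, n = 6). *Col1a2* and *Cspg4* fell by 0.45 and 0.31 on the log2 scale (edgeR FDR = 0.0158 and 0.0193), and *Acta2*, a smooth muscle actin, rose by 0.41 (edgeR FDR = 0.0452). The summed level of the list was 189 to 266 CPM with vehicle and 138 to 237 CPM with SK-124, so the groups overlapped, and no stromal marker was at 0 in all mice. The other 7 markers did not pass the test. Log2 fold changes were -0.10 for *Pdgfra*, -0.04 for *Dcn*, -0.05 for *Myh11* and 0.53 for *Dpt*. Those of *Col1a1*, *Col3a1* and *Lum* were -0.47, -0.42 and -0.27. *Pdgfrb*, *Col1a2* and *Cspg4*, but not every marker of the list, were lower in the same comparison as *Boc*, *Gas1*, *Cdon* and *Snai1*. The part of stromal cell content in the falls of those pathway genes was not tested.

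Of 5 endothelial markers 2 fell, 40% beside the 13.5% of all genes that were lower. *Ehd3* and *Kdr* fell by 0.87 and 0.85 on the log2 scale (edgeR FDR = 2.73e-05 and 0.000647), and the list summed to 139 to 198 CPM with vehicle and 109 to 189 CPM with SK-124. *Pecam1* and *Cdh5*, which mark endothelium broadly, had log2 fold changes of 0.07 and 0.29 and did not pass the test. *Emcn*, the endothelial marker with the most counts, was at 60.0 ± 8.66 CPM with vehicle and 50.9 ± 10.5 CPM with SK-124 (SD, n = 6). Of 7 proximal tubule markers 1 rose, 14.3% beside the 10.8% of all genes that were higher. That gene, *Cyp7b1*, is an oxysterol hydroxylase whose substrates include sterols that can act on SMO. It rose by 0.43 on the log2 scale (standard error 0.08, edgeR FDR = 0.00066). The proximal tubule list summed to 6201 to 7115 CPM with vehicle and 6054 to 7446 CPM with SK-124. Of the 5 urothelial, 4 erythroid and 2 fat markers tested, none had an FDR under 0.05 in edgeR's test, while 1, 0 and 1 of them had an unadjusted p under 0.05. *Upk1a*, the urothelial marker with the most counts, was at 4.13 and 5.75 CPM, *Hba-a2* at 335.0 and 290.5 CPM and *Fabp4* at 17.3 and 23.2 CPM, as means with vehicle and SK-124.

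**Figure D5:**
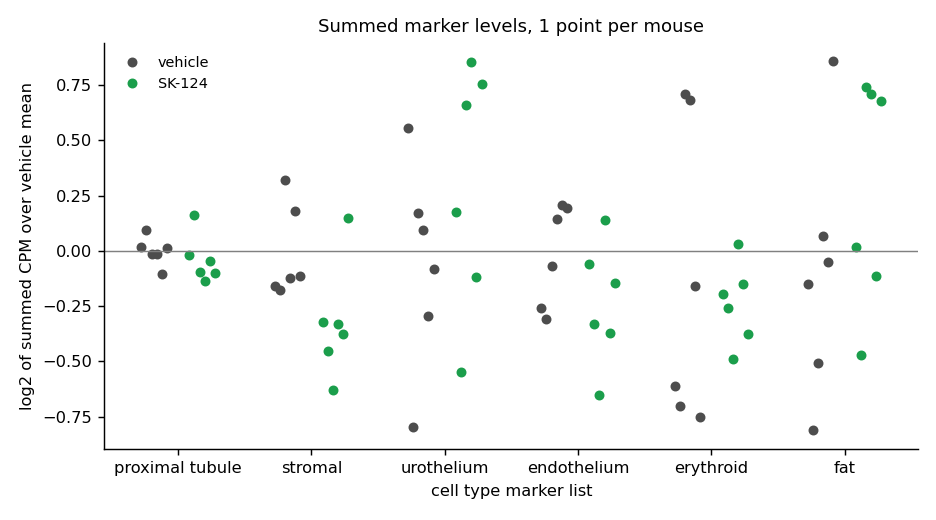
Log2 of each mouse's summed marker CPM over the vehicle mean (y axis) for 6 cell type marker lists, 1 point per mouse, vehicle in grey and SK-124 in green. The proximal tubule sums scatter around 0 in both groups, whereas 5 of 6 SK-124-treated mice lie below every vehicle-treated mouse for the stromal list.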

How the data were processed

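Whole-kidney mRNA of 6 vehicle-treated and 6 SK-124-treated mice was sequenced on a BGISEQ500 instrument, 1 library per mouse. The authors deposited 1 RSEM gene table per mouse, in which expected counts are estimated reads per gene that can be fractional and are not normalized. TPM in the same tables was computed by the authors' RSEM run from effective gene length and scaled to a fixed total per library. The submitters' processing notes name STAR 2.7.2b, RSEM 1.3.0, FastQC, DESeq2 and mm10, without roles. Use of strand in counting is not given in the sources used here.

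Expected counts were rounded, filtered with filterByExpr (count minimum of 10 in at least 6 mice), scaled by TMM and tested with edgeR's quasi-likelihood method on treatment alone. FDR is the Benjamini-Hochberg adjusted p over all 14159 genes, and standard errors are the absolute log2 fold change over the square root of F. The test the authors applied to these counts is not given in the sources used here. CPM served for comparisons of a gene between mice and TPM for comparisons between genes.

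The 7 genes, the 4 lists and the marker lists were chosen with earlier results of these data known. Named were the 7 genes, from each list the called genes (up to 6 by FDR) and the 2 with the highest TPM, from each marker list the gene with the highest CPM and up to 3 called genes, and the 5 genes most correlated with *Ihh* and with *Gli1*. Other names were chosen after their values were seen. 1 gene of the lists is not reported here, and no count or figure includes it.

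Gene symbols and positions were taken from GENCODE M21 (GRCm38), which named 54349 of 55401 identifiers at the same version and 55141 when the version was ignored for the rest. Promoter windows are from RefSeq. Replicates are separate mice. Mice with the same number were not paired, and no 2 libraries of a group looked duplicated (smallest chi-square per degree of freedom 4.72). Between vehicle-treated mouse 3 and the other vehicle-treated mice this measure was 21.02 to 27.08, beside 4.72 to 9.21 among those others. Between SK-124-treated mice 1 or 2 and mice 4 to 6 it was 20.29 to 32.79. It was 6.02 between mice 1 and 2 and 9.6 to 12.37 among mice 4 to 6. The scripts were tested on simulated data. Depth was similar in all mice. Precision is limited for genes with few counts, and calls of some genes with many counts, such as *Evc* and *Csnk1a1*, also depended on single mice. Alternatives were DESeq2, RLE factors, library totals, no filter or a stricter one, a block on replicate number, limma on TPM at pseudocounts of 1 and 0.1, omission of each mouse, and SK-124-treated mice 1 to 3 left out, and the omission of mice 4 to 6 was added after seeing the data. Fits were run in R 4.3.3 with DESeq2 1.42.0, limma 3.58.1 and edgeR 4.0.16. Summaries were made in Python 3.11.15 with scipy 1.17.1, pandas 2.3.3 and numpy 2.4.6. FPKM columns were not used here.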

Additional observations from a re-analysis of the deposited data

Results flagged for a closer look

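In 10 of 66 groups of 6 mice, 1 mouse lay farther from the other 5 than Dixon's criterion for 6 values allows. Chance gives about 3 in 66 groups when values are normally distributed. CPM of genes with few counts need not be, so the 10 are not read as an excess. Values are TMM-normalized CPM. Among the 7 hedgehog genes, *Ptch1* was at 16.75 in vehicle-treated mouse 3 against 22.4 to 25.4 in the others, *Hhip* at 0.4269 in vehicle-treated mouse 5 against 0.0494 to 0.149, and *Gli2* at 2.689 in SK-124-treated mouse 3 against 0.501 to 1.29.

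Among the other hedgehog genes, vehicle-treated mouse 3 was also low for *Lrp2*, at 1038 against 1272 to 1407, and for *Csnk1a1*, at 61.29 against 71.8 to 77.4. *Mycn* was at 2.924 in vehicle-treated mouse 4 against 1.66 to 2.07. *Boc* was at 4.406 in SK-124-treated mouse 4 against 2.41 to 3.11, and *Snai1* at 1.853 in SK-124-treated mouse 1 against 1.01 to 1.19. Of the stromal markers, *Pdgfrb* was at 8.123 in SK-124-treated mouse 3 against 13.0 to 15.7, and *Col1a2* at 44.8 in SK-124-treated mouse 6 against 26.4 to 30.6.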

How the results depend on the processing

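The log2 fold change of *Ihh* was between -1.05 and -0.81 in the 22 alternatives. *Ihh* was selected on this contrast and the alternatives use the same mice, so that range is a description and no independent support. The same holds for the counts of other hedgehog genes below, whose lists were chosen with earlier results of these data known. How many of all called genes held in every alternative was not counted, so nothing is read from that number for the hedgehog genes. Scaled by library totals alone, 2 of the 7 genes were called, *Smo* being the second at -0.21. *Gli2* was called in none of the 21 alternatives that fitted it and ranged from -0.32 to 0.58. Of the 14 other hedgehog genes called, 6 (*Boc*, *Sufu*, *Ccnd1*, *Bcl2*, *Sfrp1* and *Snai1*) were called in all 22 alternatives, 8 lost the call in some and 0 reversed. Their number was 7 without SK-124-treated mice 1 to 3, 9 without mice 4 to 6, 10 in limma on TPM and 8 to 14 with 1 mouse left out, where omitting SK-124-treated mouse 3 or 5 gave 8 and omitting SK-124-treated mouse 2 or vehicle-treated mouse 2, 4 or 5 gave 9. Smaller groups hold fewer mice per test, and the cause of the other shifts was not tested. Over all genes, 2446 were called without SK-124-treated mice 1 to 3 and 2298 without mice 4 to 6, beside 3453 with all mice. With 1 mouse left out, 2960 to 3942 were called, and the highest number was without vehicle-treated mouse 3. Higher genes made up 44.5% of all calls with TMM and 20.3% with library totals.

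Mice with the same replicate number are different animals and did not deviate together (r = -0.131 to 0.217). With the replicate number as a block, 3466 genes were called, 1 of the 7 hedgehog genes and 11 of the others, 3 higher and 8 lower. None of the 12 relations between mice passed the adjusted threshold under log2(CPM + 0.1) or log2(TPM + 0.1) either. Counts of 0 to 14 per mouse limit *Gli1*, *Gli3* and *Hhip*.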
